A study of Homo sapiens with 2 samples.

Results

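The genes of the cytosolic HSP70 and HSP110 chaperones were followed in poly(A)+ RNA of heat-shocked HEK293T cells. The group holds 10 genes of the 57736 listed in the expression tables, and all 10 were found by symbol. The members are 7 HSP70 genes (HSPA1A, HSPA1B, HSPA6, HSPA8, HSPA1L, HSPA2 and HSPA14) and 3 HSP110 genes (HSPH1, HSPA4 and HSPA4L). They were chosen by name and not by their expression, although earlier results of these data were known.

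HEK293T cells derive from human embryonic kidney and express large T antigen of SV40. They were kept at 43 °C for 20 min, returned to 37 °C for 6 h and then lysed, separately for each of 2 replicates, and this heat shock with recovery was shared by both libraries. The series holds 1 group of 2 libraries with no unheated sample, so no effect of heat on any gene could be measured. The line is a transformed one, and its kidney identity was partial in these RNAs: 3 of 10 kidney tubule and podocyte markers reached a TPM of 1 in each library, where TPM is a share of all transcripts corrected for their length, 3 were at 0 in both, and the highest, WT1, stood at 9.03 and 8.73 TPM. Of 5 listed neuronal markers 4 were detected, led by UCHL1 at 397 and 367 TPM out of a summed 470 and 453 TPM. Of 4 simple epithelium markers 3 were detected, led by KRT18 at 58.1 and 47.1 TPM. Of 2 fibroblast markers 1 was, COL1A1 at 24.1 and 20.9 TPM. By contrast, 0 of 3 leukocyte, 0 of 1 listed endothelial, 0 of 1 hepatocyte and 0 of 5 testis germ cell markers were detected. The libraries held 22529828 and 26890199 expected counts, that is, estimated numbers of reads per gene after reads that match several genes are divided among them.

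HSP70 chaperones bind exposed stretches of unfolded proteins and release them in a cycle driven by ATP. J-domain proteins deliver the substrate and start ATP hydrolysis, and nucleotide exchange factors, among them the HSP110 proteins, which are distant relatives of HSP70, reopen the chaperone. In most human cells HSPA8 is made all the time, whereas HSPA1A, HSPA1B and HSPA6 are classical genes of heat shock factor HSF1, which binds repeats of the heat shock element, a short inverted unit, in their promoters.

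The promoters of the 3 inducible HSP70 genes and of the constitutive HSPA8 are shown first, because the contrast between these genes runs through all values that follow. Each window spans 250 bases before to 50 bases after the transcription start, was taken from RefSeq (GRCh38.p14) and matched GRCh37 once, at chr6:31783070-31783369 on the + strand for HSPA1A, chr6:31795265-31795564 on the + strand for HSPA1B, chr1:161494080-161494379 on the + strand for HSPA6 and chr11:122932795-122933094 on the - strand for HSPA8. Capitals mark heat shock elements, searched on both strands as 2 units (GAANNTTC or TTCNNGAA) or 3 units (the former followed by NNGAA, the latter by NNTTC), so that each match of 3 units holds matches of 2.
HSPA1A: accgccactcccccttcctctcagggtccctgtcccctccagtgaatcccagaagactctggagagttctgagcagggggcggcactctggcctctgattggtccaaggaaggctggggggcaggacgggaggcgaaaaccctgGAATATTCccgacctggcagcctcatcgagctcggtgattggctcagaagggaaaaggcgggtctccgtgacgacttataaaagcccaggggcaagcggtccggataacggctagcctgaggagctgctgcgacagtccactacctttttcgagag
HSPA1B: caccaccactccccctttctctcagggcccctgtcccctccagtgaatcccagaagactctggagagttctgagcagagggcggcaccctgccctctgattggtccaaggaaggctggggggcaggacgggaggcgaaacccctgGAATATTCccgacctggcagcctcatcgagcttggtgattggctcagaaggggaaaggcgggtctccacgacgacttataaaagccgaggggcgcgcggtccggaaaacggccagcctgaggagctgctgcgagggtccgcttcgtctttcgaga
HSPA6: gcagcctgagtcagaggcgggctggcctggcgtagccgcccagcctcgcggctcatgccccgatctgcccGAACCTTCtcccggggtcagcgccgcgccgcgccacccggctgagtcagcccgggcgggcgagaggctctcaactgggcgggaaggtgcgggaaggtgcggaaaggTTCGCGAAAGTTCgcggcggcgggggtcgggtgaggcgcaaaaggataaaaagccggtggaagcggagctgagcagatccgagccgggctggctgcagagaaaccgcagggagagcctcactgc
HSPA8: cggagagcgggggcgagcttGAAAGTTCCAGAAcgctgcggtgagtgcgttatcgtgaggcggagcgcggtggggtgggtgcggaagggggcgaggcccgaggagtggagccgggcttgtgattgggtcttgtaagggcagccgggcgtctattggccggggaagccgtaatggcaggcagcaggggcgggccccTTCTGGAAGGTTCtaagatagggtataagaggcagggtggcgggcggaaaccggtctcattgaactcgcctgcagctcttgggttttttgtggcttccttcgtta

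The 3-unit element was found in 2 of the 9 members with a promoter in the reference table (all but HSPA14), namely HSPA6 and HSPA8, against 0.608% of all 27305 genes there. HSPA6 held it once, at 74 to 62 bases before the start, and HSPA8 held it at 230 to 218 and at 55 to 43 bases before the start. Both a strictly inducible gene and the constitutive one thus carried the longer element. The 2-unit element was present in 6 of 9 members (HSPA1A, HSPA1B, HSPA6, HSPA8, HSPA1L and HSPA4L) against 16.2% of genes, and neither HSPA2, HSPA4 nor HSPH1 had these letters in the window. HSPA4L has 3 windows, for 3 starts, of which 1 held the element. The CCAAT box (CCAAT) was in 6 of 9 members, against 39.7% of genes, and the TATA box (TATAAA) in 4 of 9, against 14.0%. These are letter matches in fixed windows, with no measurement of factor binding behind them.

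The promoters of HSPA1A and HSPA1B were near copies, with 277 identical bases in 301 aligned columns, or 92.0%. In both, the order was CCAAT box, 2-unit element, CCAAT box and TATA box, with the element 99 and 98 bases before the start and the TATA box 25 and 24 bases before it. The window of HSPA1A was 48.6% identical to that of HSPA6 and 49.1% identical to that of HSPA8. These alignments held 66 and 44 gap columns, and the identity of unrelated windows was not measured. HSPA1L, a testis-enriched gene that is read in the opposite direction from HSPA1A, starts 260 bases away from it, and 241 bases of their windows were the same DNA. Its heat shock element, CCAAT boxes and TATA box were therefore those of HSPA1A read on the other strand.

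**Figure D1:**
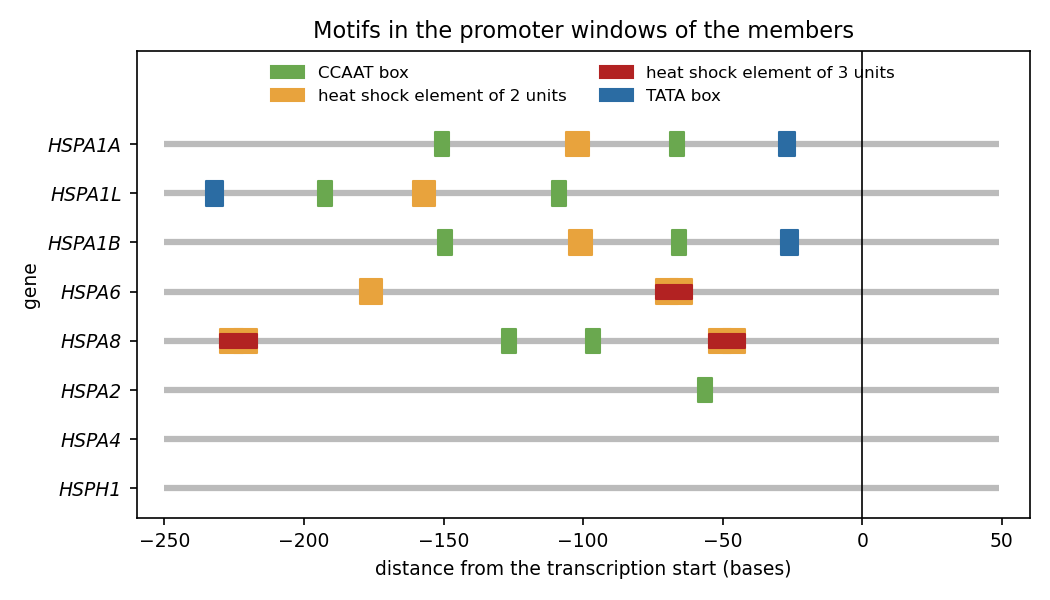
Positions of heat shock elements of 2 and 3 units, TATA boxes and CCAAT boxes in the promoter windows of 8 members, in bases from the transcription start (vertical line at 0); grey bars are the windows. HSPA6 has 1 and HSPA8 has 2 elements of 3 units, and no motif was matched in HSPA4 and HSPH1. HSPA4L, with 3 windows, is not drawn.

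After recovery the constitutive HSPA8 had the highest level of all members. It stood at 1220 TPM in replicate 1 and 1137 TPM in replicate 2, or 1178 ± 58.4 TPM (SD, n = 2), rank 93 of all listed genes by mean. TPM is corrected for transcript length, so these values can be set against those of other genes only as far as the listed lengths hold. The listed length of HSPA8 was 1625 bases in replicate 1 and 1600 in replicate 2, shorter than its coding sequence of 1938 bases. A short length raises TPM.

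HSPA1B, the leading inducible HSP70 gene, came second with 345 TPM in replicate 1 and 376 TPM in replicate 2 (361 ± 21.7 TPM, SD, n = 2; rank 312). HSPA8 exceeded HSPA1B 3.53-fold in replicate 1 and 3.02-fold in replicate 2, and the values of the 2 genes did not overlap. Even the ratio of the lower credibility bound of HSPA8 to the upper bound of HSPA1B was 3.42 and 2.94. These bounds take in the uncertainty of read assignment. Without correction for length the gap was smaller, with 35075 and 36621 expected counts for HSPA8 against 14480 and 18092 for HSPA1B. The other inducible genes were listed at very low levels. HSPA1A was at 0.47 and 1.05 TPM, and HSPA6, which is silent in many cell types without stress, at 0.04 and 0.06 TPM. The level of HSPA1A depends on how reads shared with HSPA1B were divided, so it may not give its true expression.

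HSPA6 rested on 2 reads in replicate 1 and 3 reads in replicate 2. The exact Poisson intervals at 95% were 0.242 to 7.22 and 0.619 to 8.77 reads, which cover counting error only, and both counts lay at or under a floor of 3 reads, so no ratio between libraries was formed. Its TPM bounds reached up to 0.129 and 0.143. HSPA6 mRNA was thus barely detectable at this depth in either library, and 45.8% of its 50-base sequences are also those of the pseudogene HSPA7. HSPA7 itself had 1 read in replicate 1 and 0 in replicate 2.

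The other HSP70 members ranged widely. HSPA14, which works in a complex on the ribosome, was at 64.4 TPM in replicate 1 and 73.8 TPM in replicate 2. HSPA2, which is needed in male germ cells, was at 3.78 and 3.03 TPM, and HSPA1L at 0.54 and 0.52 TPM. HSPA2 thus exceeded HSPA1L 7-fold and 5.83-fold, while the summed level of 5 testis germ cell markers was 0 and 0.04 TPM.

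Among the HSP110 genes, the constitutive HSPA4 was at 67.8 and 78.2 TPM, and the heat-inducible HSPH1 at 38.4 and 58.1 TPM. HSPA4L, described as enriched in testis, was at 18.7 TPM in replicate 1 and 39.7 TPM in replicate 2. HSPA4 exceeded HSPH1 1.77-fold and 1.35-fold. All 3 HSP110 mRNAs were therefore well detected, including the testis-enriched one, but HSPH1 and HSPA4L overlapped between the libraries.

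In the order of mean TPM, 6 of the 9 neighbouring pairs did not overlap. HSPA8 stood above HSPA1B, and HSPA1B above HSPA4. HSPA4 and HSPA14 overlapped, although HSPA4 was 1.05-fold and 1.06-fold higher within the libraries. HSPH1 and HSPA4L, which stood below them, overlapped as well, with HSPH1 2.06-fold and 1.47-fold higher within the libraries. HSPA2 came next, followed by HSPA1A and HSPA1L, whose order turned between the libraries, and HSPA6 at the end. With 2 libraries a group, an overlap is a description and no test. In a bulk sample, fewer cells that express a gene and less RNA per cell cannot be told apart.

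Of the 10 members, 7 were detected, that is, had 1 TPM or more in each library, against 26.3% of all listed genes and 63.8% of protein-coding genes. The members that did not reach it were HSPA1L, HSPA6 and HSPA1A, whose listed level rests on the division of reads with HSPA1B. Together the 10 members made up 0.176% of all TPM in replicate 1 and 0.177% in replicate 2.

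**Figure D2:**
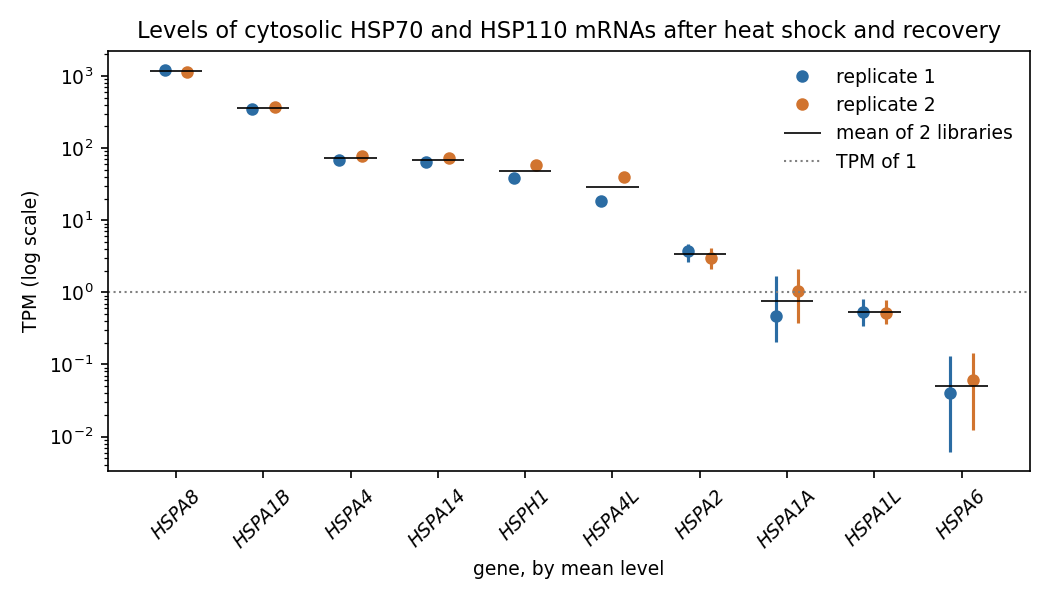
TPM (log scale) of the 10 members in each library (points), with the listed TPM credibility bounds (vertical lines), the mean of 2 libraries (short horizontal lines) and a TPM of 1 (dotted line). Levels run from HSPA8 at 1178 TPM to HSPA6 at 0.050 TPM, and for HSPA8 and HSPA1B the listed TPM lies just above its own bounds in both libraries.

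The inducible genes HSPA1A, HSPA1B and HSPA6 together gave 21.2% of the HSP70 TPM in replicate 1 and 23.7% in replicate 2, that is 22.4 ± 1.79% (SD, n = 2). HSPA8 gave 74.6% and 71.4%, HSPA14 gave 3.94% and 4.64%, and the testis-enriched HSPA1L and HSPA2 together gave 0.264% and 0.223%. The gene classed as constitutive, HSPA8, thus held most of the HSP70 TPM in both libraries, and the genes classed as inducible held less. Without an unheated sample in this series, how much of the message of either class was made in response to heat cannot be read from these libraries. Within the inducible share HSPA1B made up 99.9% and 99.7%, a split that rests on how reads shared with HSPA1A were divided. Counted as reads, without correction for length, the inducible share was higher, 28.3% (95% Clopper-Pearson interval 27.9 to 28.7) in replicate 1 and 31.9% (31.5 to 32.3) in replicate 2, where the intervals cover counting error only.

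Among the HSP110 genes, the inducible HSPH1 gave 30.7% of the TPM in replicate 1 and 33.02% in replicate 2 (31.9 ± 1.61%, SD, n = 2). HSPA4 gave 54.3% and 44.4%, and HSPA4L 14.9% and 22.5%. HSP110 genes as a whole gave 7.10% of the TPM of all members in replicate 1 and 9.96% in replicate 2.

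**Figure D3:**
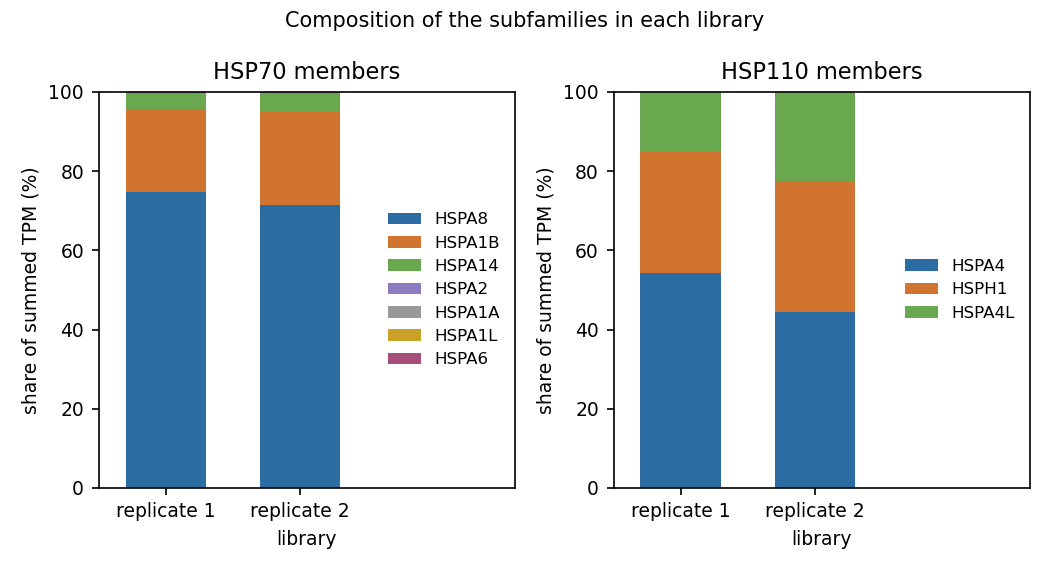
Stacked bars show the share (%) of each member in the summed TPM of the HSP70 genes (left) and of the HSP110 genes (right) in each library. HSPA8 and HSPA1B fill most of the HSP70 bars, while HSPA2, HSPA1A, HSPA1L and HSPA6 are too thin to be seen, and the HSPA4L share is 14.9% in replicate 1 and 22.5% in replicate 2.

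The split between HSPA1A and HSPA1B depended on how reads were divided between 2 nearly identical genes. HSPA1A (ENSG00000204389, chr6:31783320-31785723) and HSPA1B (ENSG00000204388, chr6:31795515-31798031), both on the + strand of GRCh37, have a single exon each. Their coding sequences of 1923 bases differ at 4 positions, G1710T, G1860C, C1905T and A1920G, given as the HSPA1A base, the position from the start of the coding sequence and the HSPA1B base. The longest identical run was 1709 bases, and 1760 of 1874 possible windows of 50 bases, the read length, or 93.9%, held no difference. Over whole transcripts of the reference annotation, 1766 of the 2397 50-base sequences of HSPA1A were also in HSPA1B. The last 60 coding bases of the HSP70 members other than the distant HSPA14 are given because they hold a pair of these differences and show how fast the other paralogs diverge. Capitals mark bases that differ from HSPA1A at the same distance from the end, and all lie in 1 exon before the stop codon, at chr6:31785397-31785456 (+) for HSPA1A, chr6:31797591-31797650 (+) for HSPA1B, chr1:161496318-161496377 (+) for HSPA6, chr11:122928445-122928504 (-) for HSPA8, chr6:31777827-31777886 (-) for HSPA1L and chr14:65009425-65009484 (+) for HSPA2 in GRCh37.
HSPA1A: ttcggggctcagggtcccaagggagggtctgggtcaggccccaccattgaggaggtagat
HSPA1B: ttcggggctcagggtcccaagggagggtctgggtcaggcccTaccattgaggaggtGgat
HSPA6: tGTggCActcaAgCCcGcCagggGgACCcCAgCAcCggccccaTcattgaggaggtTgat
HSPA8: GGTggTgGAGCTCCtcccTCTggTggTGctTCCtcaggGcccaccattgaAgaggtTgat
HSPA1L: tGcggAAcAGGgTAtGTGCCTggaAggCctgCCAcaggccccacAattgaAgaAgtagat
HSPA2: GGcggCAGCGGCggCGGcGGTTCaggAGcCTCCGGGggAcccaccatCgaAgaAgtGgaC

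In these 60 bases HSPA1B differed from HSPA1A at 2 positions, HSPA6 at 20, HSPA1L at 22, HSPA8 at 23 and HSPA2 at 32, and HSPA14, whose bases are not shown, at 39. Over whole coding sequences, HSPA1A was 99.8% identical to HSPA1B, 81.1% to HSPA1L, 80.7% to HSPA6, 80.1% to HSPA2 and 73.8% to HSPA8. HSPA14 stood apart, with 45.7% identity to HSPA1A. The HSP110 genes were 63.98% to 66.90% identical to each other and 41.6% to 47.6% identical to HSP70 members. Identity between unrelated coding sequences was not measured. Exon number followed a different line. HSPA1A, HSPA1B, HSPA6 and HSPA2 have 1 exon and HSPA1L has 2, of which 1 is coding, whereas HSPA8 has 8, HSPA14 has 14, HSPH1 has 18 and HSPA4 and HSPA4L have 19 each in their longest coding transcripts.

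The division left HSPA1A with an error that was large beside its own count, 85.8% of it in replicate 1 and 43.3% in replicate 2. HSPA1A had 15.5 expected counts with a posterior SD of 13.3 in replicate 1 and 39.6 expected counts with a posterior SD of 17.1 in replicate 2, where the posterior SD is the spread of the estimate over possible assignments of shared reads. The same reads gave HSPA1B 14480 expected counts with a posterior SD of 13.4 and 18092 with a posterior SD of 17.1. HSPA1A thus took 0.107% and 0.218% of the reads of the pair. The reads of the pair summed to 14495 and 18131 expected counts, a sum that moving reads between these genes leaves as it is, and their summed level was 346 TPM and 377 TPM. The TPM of HSPA1A lay between 0.206 and 1.70 by its bounds in replicate 1 and between 0.379 and 2.14 in replicate 2.

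For no other member was the posterior SD more than 3.48% of the count. HSPA8 had a posterior SD of 1.44 on 35075 expected counts and of 1.06 on 36621, although 8.23% of its 50-base sequences occur in other genes. HSPA14 shares 11.0% of its 50-base sequences with MSANTD7, which has no values here. HSPA4 and HSPH1 share none. The 18 pseudogenes of the members, 17 of HSPA8 and HSPA7, held 29.2 expected counts in replicate 1 and 51.6 in replicate 2 in sum. None was detected, and the highest were HSPA8P15 at 0.37 and 0.91 TPM, HSPA8P3 at 0.15 and 0.59 TPM and HSPA8P14 at 0.19 and 0.33 TPM.

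**Figure D4:**
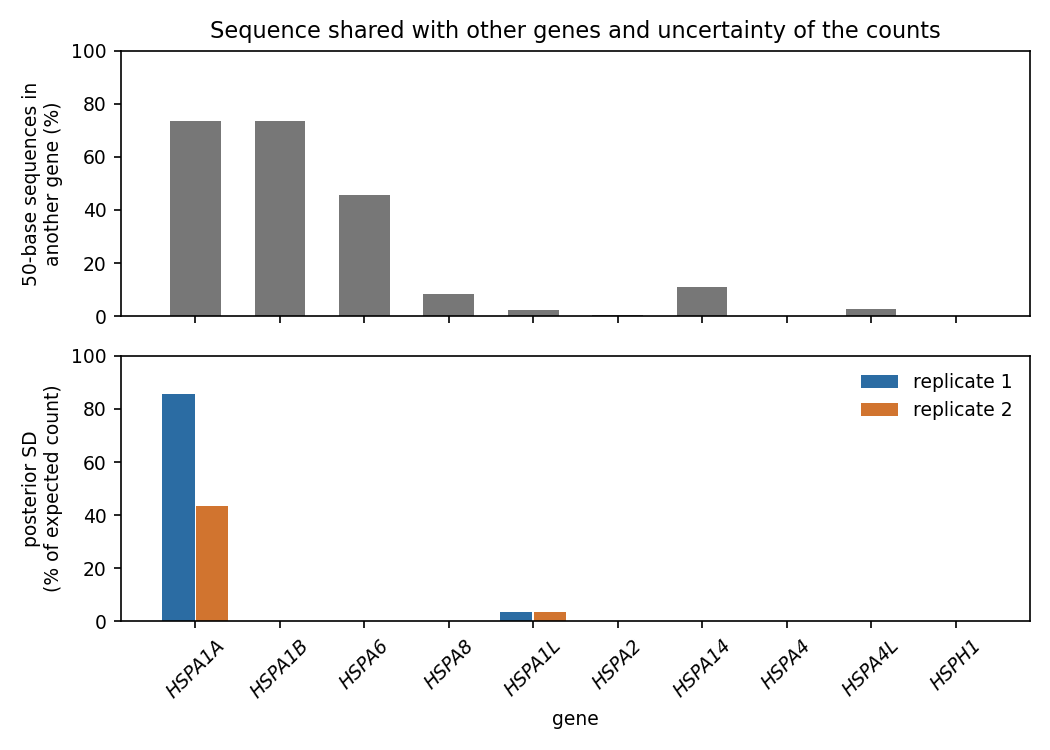
Upper bars: share (%) of the 50-base sequences in the reference transcripts of each member that occur in another gene. Lower bars: posterior SD as a percent of the expected count in each library. HSPA1A and HSPA1B both share over 73% of their sequences, but only HSPA1A has a posterior SD that is large beside its count, 85.8% in replicate 1 and 43.3% in replicate 2.

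Of the members, 7 overlap another annotated gene on either strand. Among those with at least 1 TPM in both libraries, CDNF lies on the opposite strand of HSPA14 and was at 3.94 and 2.71 TPM, against 64.4 and 73.8 TPM for HSPA14. The small nucleolar RNA gene SNORD14E, inside HSPA8, was at 2.97 and 2.61 TPM on 2 reads in each library. The strand setting of the counting is not given in these sources, so reads of HSPA14 and CDNF over shared sequence may not be told apart.

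The libraries were then compared with each other, which compares 2 replicates and not conditions. The log2 ratio of scaled counts, replicate 2 over replicate 1, was tested for each gene by an exact binomial test, two-sided, and p-values were adjusted by Benjamini-Hochberg over the 19714 genes that had 10 or more counts in sum. The test covers counting error only. Of the 9 members tested, 5 passed at an adjusted p of 0.05, against 43.1% of all genes tested, so differences of this kind were common. With a count minimum of 100, which HSPA1A, HSPA1L and HSPA6 did not reach, 4 members passed, against 58.4% of genes. HSPA6 was not tested, with 5 reads in sum. The 5 members were 4 that were higher in replicate 2 (20.9% of genes) and 1 that was higher in replicate 1 (22.2% of genes). The median log2 ratio was 0.02 over the 9 members and -0.0014 over all genes tested.

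HSPA4L differed most among the well-counted members, with a log2 ratio of 0.93 on 1218 and 2865 expected counts (adjusted p = 4.38e-83). HSPH1 had a log2 ratio of 0.44 (adjusted p = 3.57e-27) and HSPA4 one of 0.09 (adjusted p = 0.00117). HSPA8 was higher in replicate 1, with a log2 ratio of -0.24 (adjusted p = 3.78e-109). The 3 HSP110 genes were thus all higher in replicate 2, to unequal extents. HSPA1A passed with a log2 ratio of 0.99 (adjusted p = 0.0373), but its counts rest on the uncertain division described above, and with posterior mean counts the ratio was 0.40 (adjusted p = 0.388).

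The remaining tested members did not pass. HSPA1B had a log2 ratio of 0.02 (adjusted p = 0.427), HSPA14 one of -0.02 (adjusted p = 0.783), HSPA1L one of -0.01 (adjusted p = 1) and HSPA2 one of -0.38 (adjusted p = 0.0799). For HSPA1L, with 21.6 and 26.6 expected counts, only a large difference could have been seen. When a biological coefficient of variation of 0.1 was assumed in edgeR's exact test, HSPA4L alone of the members passed (adjusted p = 0.000452), against 7.24% of all genes.

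GC content moved with the difference between the libraries. Over 13544 genes that had 100 or more counts in sum, the log2 ratio had a Pearson r of -0.64 with transcript GC content, given as a description across genes of the same 2 libraries. The members spread over this range. HSPA4L, HSPH1 and HSPA14 have a GC content of 39.0%, 39.2% and 39.3%, HSPA4 has 41.6%, HSPA8 has 46.5%, HSPA2 has 48.2%, HSPA1L has 50.8%, and HSPA1B and HSPA1A have 58.8% and 59.3%.

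With the median trend over GC content subtracted, HSPA4L kept a positive log2 ratio of 0.39 (adjusted p = 1.72e-14). HSPH1 changed to -0.07 (adjusted p = 0.194) and HSPA4 to -0.18 (adjusted p = 1.59e-11). HSPA14, which had shown no difference past the threshold, came to -0.52 (adjusted p = 1.04e-23), and HSPA1B to 0.25 (adjusted p = 1.48e-54). HSPA8 stayed at -0.25 (adjusted p = 1.43e-112) and HSPA1A at 1.22 (adjusted p = 0.0138). The direction of HSPH1 and HSPA4 between the libraries therefore depended on whether genes of like GC content were the reference. In that comparison 6 of 9 members passed, against 26.8% of 19048 genes.

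**Figure D5:**
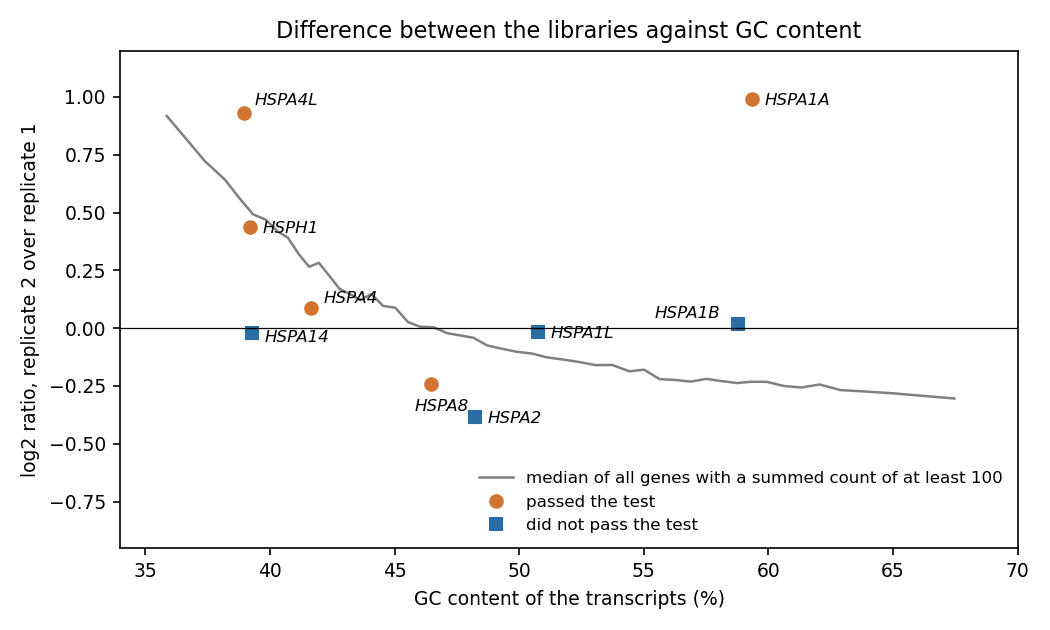
Log2 ratio of replicate 2 over replicate 1 against the GC content of the transcripts (%) for the 9 tested members, with circles for those that passed the test and squares for those that did not; the grey line is the median of all genes that had 100 or more counts in sum. HSPA4L, at 0.93, lies above the line and HSPA14, at -0.02, below it, at nearly the same GC content.

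The partners of HSP70 were present in the same RNAs. Of 18 co-chaperones listed, 17 were detected, against 63.8% of protein-coding genes and 26.3% of all listed genes. All 6 nucleotide exchange factors of the BAG and HSPBP1 kind were detected, with BAG4 at 55.8 and 75.5 TPM and BAG1 at 54.4 and 41.6 TPM as the highest. Of the 9 J-domain partners 8 were detected, and the highest by mean were DNAJB6 at 234 and 235 TPM and DNAJC7 at 145 and 150 TPM. The adaptor STIP1, which links HSP70 to HSP90, was at 477 and 441 TPM, and ST13, which holds HSP70 in its ADP-bound form, at 365 and 394 TPM. In TPM both stood above HSPA1B in both libraries, while in expected counts both stood below it.

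Between the libraries, 14 of the 18 co-chaperones passed the binomial test (43.1% of all genes tested), 6 higher in replicate 2 (20.9%) and 8 higher in replicate 1 (22.2%), with a median log2 ratio of -0.08. Among genes with 100 or more counts in sum, 58.4% passed. The nucleotide exchange factors split into 3 and 3, the J-domain partners into 2 and 3 of 9, and the adaptors and the ligase STUB1 into 1 and 2 of 3. With the GC trend subtracted 8 of 18 passed, against 26.8% of genes, a share not matched for counts. Of 6 HSP70 relatives outside the cytosolic group, 5 were detected and 2 passed, 1 in each direction. The highest were the mitochondrial HSPA9 at 559 and 598 TPM, and the endoplasmic reticulum chaperone HSPA5 at 107 and 116 TPM. In TPM HSPA9 thus lay between HSPA8 and HSPA1B in both libraries. Its listed length was 908 and 923 bases, against 2346 and 2365 for HSPA1B, and a short length raises TPM. In expected counts HSPA9 stood below HSPA1B, at 8766 and 10867 against 14480 and 18092.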

How the data were processed

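Poly(A)+ RNA of 2 replicates of heat-shocked HEK293T cells was sequenced with 50 bp reads, although GEO lists the molecule as genomic DNA. Heating and recovery times are those of the labels, and the text of the study describes a longer heating at the same temperature. The study's methods name Trimmomatic, STAR, GRCh37/hg19 and featureCounts with Ensembl genes. The submitters' processing notes name Trimmomatic 0.36, STAR 2.6.1c and RSEM 1.3.1. The deposited tables, in the layout of RSEM, hold expected counts, TPM, FPKM, posterior means and SDs and TPM credibility bounds per gene. A deposited table of both replicates pooled was not used for tests. TPM and FPKM had been scaled by the authors for transcript length and depth, and expected counts were not normalized. The posterior SDs (in reads) and TPM bounds are scores the deposited tables give for each gene.

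Members, lists and tests were chosen with earlier results of these data known. Named genes are all members, the 2 of highest mean TPM in each partner list, the 3 highest pseudogenes and HSPA7, and overlapping genes with at least 1 TPM in both libraries; no partner reached an absolute log2 ratio of 1 on 100 or more counts in sum. STUB1, HSPBP1 and MSANTD7 are named only to say what a list or overlap holds. GENCODE annotation lifted to GRCh37, which held 96.1% of the listed identifiers, gave positions, GC content, coding sequences and shared 50-base sequences. Its transcripts differ from those behind the deposited counts. The listed length was 1867 bases for HSPA1A and 2646 for HSPA6, against 2400 or 1909 and 2355 in the annotation. For HSPA1A it is also shorter than the coding sequence of 1923 bases. Sharing among the transcripts used for counting may therefore differ. A planned comparison of protein sequences was not run, because no protein table was used here.

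Levels are TPM with mean and SD of 2 libraries. Expected counts were rounded to whole numbers, a pseudocount of 0.5 was added for ratios, and edgeR 4.0.16 TMM factors scaled the libraries. A replicated model needs groups with replicates, which 1 group does not give. The binomial test used SciPy 1.17.1 and was tested on simulated data. The GC trend was the median log2 ratio in 50 GC classes, interpolated. The labels say only that the replicates were lysed separately, so differences between them may be technical. The binomial p-values set each difference against counting error only, and no spread between replicates enters them. Alternatives were other TPM and count minimums, FPKM, counts or posterior means in place of TPM, library totals or DESeq2 1.42.0 size factors, a pseudocount of 1, the GC trend, edgeR's exact test and either replicate alone.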

Additional observations from a re-analysis of the deposited data

How the results depend on the processing

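No paired analysis was possible because all samples belong to 1 group. Of 10 members, between 7 and 8 were detected when either replicate was left out, 9 at a minimum of 0.1 TPM and 6 at a minimum of 5 TPM. The inducible share of HSP70 TPM ran from 21.2% to 23.7% and the HSPH1 share of HSP110 TPM from 30.7% to 33.02% with either replicate alone. With expected counts in place of TPM these shares were 30.1% and 23.6%, since counts carry no correction for length. FPKM, posterior mean TPM and, for the inducible share, leaving out HSPA14 moved them by less than the SD of the replicates. With the biological coefficient of variation set to 0.1, 1 member passed between the libraries, against 5. Over 79 repeats of the members' log2 ratios, 60 kept both direction and side of the threshold, 6 kept the direction but no longer passed, 5 kept it and newly passed, and 8 changed sign, of which HSPH1 with the GC trend subtracted also no longer passed (adjusted p = 0.194). The sign changes were HSPA1L (0.034 with library totals, 0.10 with the GC trend subtracted and 0.020 with that trend centred on its median), HSPA14 (0.026 with library totals), HSPA4 (-0.18 and -0.26 with the trend subtracted as it stands and centred) and HSPH1 (-0.072 and -0.15 likewise). Centring the trend was chosen after seeing the data. It moved the calls of all genes from 13.5% higher in replicate 2 and 13.3% higher in replicate 1 to 9.15% and 22.1%, and HSPH1 then passed (adjusted p = 0.000727). HSPA1A also missed the threshold with no count minimum (adjusted p = 0.059), while HSPA1B passed with library totals (log2 ratio 0.07, adjusted p = 0.000168). Depth limits HSPA6 and HSPA1L, whose counts were below 40 in each library. The counts of HSPA1A were also below 40, but they are limited by the uncertain division of reads with HSPA1B.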
